A study of Mus musculus with 6 samples.

Results

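The genes described are 9 ligand and receptor genes of the interleukin-6 family, together with the transcription factor that the family activates. They are the ligands Lif, Il6, Il11 and Clcf1, the receptor genes Lifr, Il6st, Il6ra, Il11ra1 and Osmr, and Stat3, 10 of the 21436 mouse genes in the table, and all 10 were found. They were chosen by name with the comparison of the groups already known, so their own differences between groups are given as a description, with no p-value, and their ranks and calls in the fit over all genes support nothing. The cells belonged to 3T3-L1, a wild-type mouse line of embryonic fibroblasts that forms adipocytes when induced with hormones. All spent 72 h in adipogenic medium, high-glucose DMEM with 10% FBS to which insulin (10 mg/L), IBMX (0.5 mmol/L), dexamethasone (1 µmol/L) and rosiglitazone (2 µmol/L) had been added. They grew below a Transwell insert whose pores measured 0.4 µm. In the group called alone (3 libraries) the upper chamber held no cells, and in the group called co-culture (3 libraries) it held human umbilical cord mesenchymal stem cells. The comparison asks how gene expression in the preadipocytes differed when the human cells shared the medium. Only mouse genes are in the table, so the ligands made by the human cells were not analysed here.

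Cytokines of this family share 1 signal-transducing receptor chain, gp130, encoded by Il6st. IL-6 and IL-11 first bind a non-signalling alpha receptor (Il6ra, Il11ra1) and then a pair of gp130 chains, while LIF joins gp130 to the LIF receptor (Lifr) and oncostatin M joins it to the oncostatin M receptor (Osmr). The paired chains activate JAK kinases, which phosphorylate STAT3, and STAT3 induces its own inhibitor SOCS3. Preadipocytes and stromal cells secrete several of these ligands, and IL-11 was described early on as an inhibitor of adipocyte differentiation.

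Levels are given in FPKM, which divides fragments by gene length and by library size, so that genes can be compared per length. Library totals recovered from the values ranged from 29603755 to 38357563 reads, and the lowest number of reads for any of the 10 genes in any library was 147. Nothing in the labels states that the 3 libraries of a group stem from different cultures, and the p-values below therefore reflect a spread that may be technical. All 10 fibroblast and preadipocyte markers were present (summed level 4627 to 4796 FPKM alone and 4688 to 4753 in co-culture). Endothelial and epithelial markers summed to at most 0.298 and 0.0839 FPKM in any library. Of 12 blood cell markers all were listed, and their summed level was 20.1 to 36.6 FPKM alone and 3.82 to 21.3 in co-culture, with 45 reads in co-culture replicate 1.

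The promoter sequences of the ligand genes Lif, Il6 and Il11 are shown because these genes had the largest differences among the 10. Each is the 250 bases before an annotated transcript start, from RefSeq on GRCm38.p6 (the assembly of mm10), read 5′ to 3′ on the gene's strand. Capitals mark matches to the motifs searched: the STAT motif GAS (TTCNNNGAA), the cyclic AMP response element CRE (TGACGTCA) and its half-site (TGACG), AP-1 (TGANTCA), C/EBP (TTGCNNAA) and the kappaB consensus, each on both strands. No matches overlapped.
Lif, chr11:4257318-4257567, plus strand: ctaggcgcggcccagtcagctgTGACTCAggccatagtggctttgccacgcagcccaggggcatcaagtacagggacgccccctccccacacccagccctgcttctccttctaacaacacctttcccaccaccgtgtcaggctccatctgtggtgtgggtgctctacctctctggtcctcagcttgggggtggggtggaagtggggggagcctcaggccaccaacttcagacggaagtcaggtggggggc
Il6, chr5:30012864-30013113, plus strand: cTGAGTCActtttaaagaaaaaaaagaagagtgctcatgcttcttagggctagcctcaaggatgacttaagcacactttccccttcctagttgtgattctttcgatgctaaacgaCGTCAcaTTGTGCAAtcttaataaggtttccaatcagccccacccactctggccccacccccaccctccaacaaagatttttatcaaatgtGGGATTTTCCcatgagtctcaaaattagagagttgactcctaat
Il11, chr7:4778142-4778391, minus strand: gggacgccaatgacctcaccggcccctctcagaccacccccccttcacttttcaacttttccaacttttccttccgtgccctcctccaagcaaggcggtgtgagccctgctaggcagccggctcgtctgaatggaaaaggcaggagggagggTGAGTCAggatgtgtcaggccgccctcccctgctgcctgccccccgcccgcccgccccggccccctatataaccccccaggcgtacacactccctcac
Each of these 3 windows held 1 AP-1 match, a motif bound by Fos and Jun proteins, which 6.75% of all 32851 promoter windows of this length held. The match began 228 bases before the start in Lif, 249 in Il6 and 98 in Il11. The Il6 window also held a CRE half-site 135 bases before the start (17.8% of all windows), a C/EBP match at 128 (9.56%) and a kappaB match at 44 (5% of all windows). The kappaB result depends on the form searched. A shorter form of 9 letters, tried first, was held by 7.91% of all windows and matched 2 of the 12 windows of these genes, a second Il11 window and that of Il6ra, but not that of Il6. The form of 10 letters reported here was adopted after that result had been seen. With the forms reported, the window of the second annotated Il11 start held no match. Windows were found for 9 of the 10 genes (12 windows), with none for Clcf1. Among the 8 windows of receptor genes and Stat3, 1 of Il6ra held a CRE half-site and 0 held an AP-1, C/EBP or kappaB match. The GAS motif and the full CRE, held by 7.02% and 1.55% of all windows, were in 0 of the 12. A match describes the letters in the window and not the binding of a factor.

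The 4 ligand genes were all lower in co-culture, by sizes that ranged from 1.37-fold to 11.04-fold. Lif, known for keeping mouse embryonic stem cells undifferentiated, was at 13.88, 14.06 and 14.03 FPKM in the libraries of cells alone, in replicate order, and at 1.12, 1.33 and 1.35 FPKM in those of co-cultured cells. The groups did not overlap, and the highest co-culture library was at 9.62% of the alone mean. The ratio of mean FPKM was 11.04-fold lower (13.99 ± 0.0991 to 1.27 ± 0.125 FPKM, SD, n = 3). Those values rested on 8607 reads alone and 731 in co-culture. On the log2(FPKM + 1) scale, which understates changes of low genes, the Lif difference was −2.73 with SE 0.0555, the lowest of the 10055 genes tested.

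Il6 encodes interleukin-6, an inflammatory cytokine that induces acute-phase proteins in liver. Its values were 36.05, 29.99 and 31.6 FPKM alone and 8.32, 6.897 and 9.39 FPKM in co-culture. The groups lay far apart, although the libraries of each group differed from each other more than those of Lif. The mean ratio was 3.97-fold lower (32.55 ± 3.14 to 8.20 ± 1.252 FPKM), and the log2 difference was −1.87 with SE 0.0925, which ranked 5 from the lowest.

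Il11 was at 5.56, 4.68 and 5.10 FPKM alone and at 1.81, 1.86 and 2.04 FPKM in co-culture. Again every co-culture library was below every library of cells alone. The mean ratio was 2.69-fold lower (5.11 ± 0.437 to 1.904 ± 0.116 FPKM, 1576 and 547 reads), and the log2 difference of −1.07 (SE 0.0661) ranked 22 from the lowest. Clcf1 encodes cardiotrophin-like cytokine factor 1, a ligand that signals through gp130 and the LIF receptor. It was at 24.4, 22.8 and 24.2 FPKM alone and 17.5, 16.8 and 17.7 FPKM in co-culture. The groups did not overlap, but the difference was the smallest of the ligands, 1.37-fold lower (23.8 ± 0.876 to 17.3 ± 0.463 FPKM, log2 difference −0.43, SE 0.0418).

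**Figure D1:**
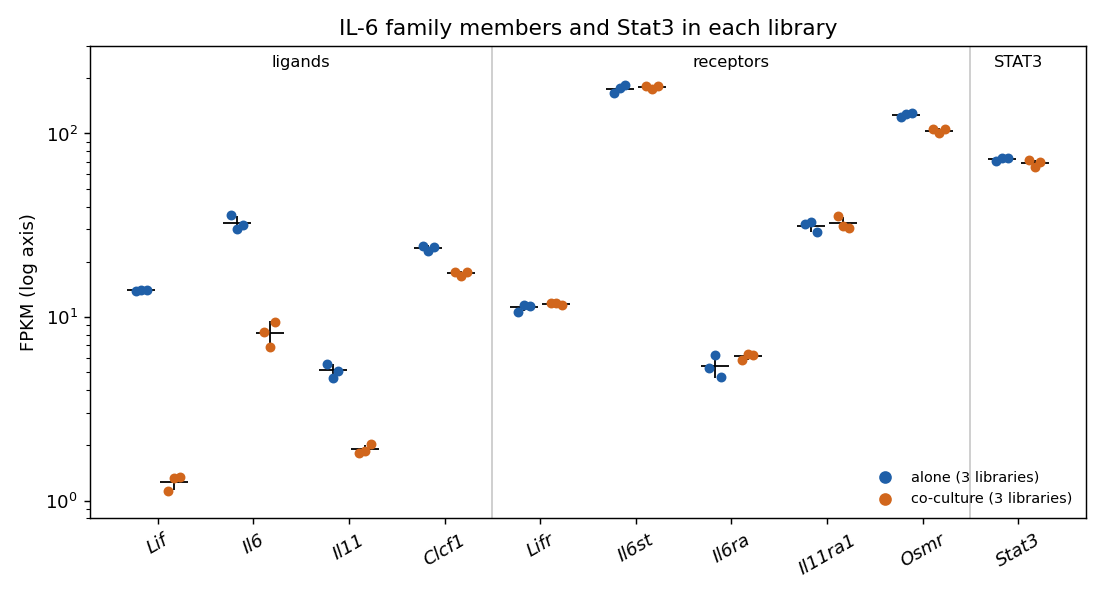
FPKM (log axis) of the 4 ligand genes, 5 receptor genes and Stat3 in each of the 6 libraries. Points are libraries, horizontal bars are group means and vertical bars the SD (n = 3). Lif lies at 13.88 to 14.06 FPKM alone and 1.12 to 1.35 FPKM in co-culture, while Il6st lies at 166 to 183 FPKM alone and 174 to 182.5 FPKM in co-culture.

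The receptor genes other than Osmr overlapped between the groups. Osmr, the oncostatin M receptor, was at 123.5, 127 and 128.6 FPKM alone and 105.6, 100.3 and 105.2 FPKM in co-culture. No library of one group reached the range of the other. The mean was 1.22-fold lower (126 ± 2.62 to 103.7 ± 2.99 FPKM, log2 difference −0.28, SE 0.0355). Osmr and Lifr lie near each other on chromosome 15, 215.6 kb apart with 3 annotated genes between them, of which 0 are protein-coding. Lifr was at 10.7, 11.7 and 11.4 FPKM alone and 11.95, 11.9 and 11.6 FPKM in co-culture, and its groups overlapped (log2 difference 0.063, SE 0.0458).

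Il6st, the shared gp130 chain, was at 166, 177.5 and 183 FPKM alone and 182.5, 174 and 180.8 FPKM in co-culture. Its log2 difference of 0.028 (SE 0.0418) was smaller than the spread between libraries of a group. Il6ra, the alpha receptor of IL-6, was at 5.26, 6.22 and 4.74 FPKM alone and 5.81, 6.27 and 6.20 FPKM in co-culture. The alone libraries were spread widely and alone replicate 2 lay inside the co-culture range (log2 difference 0.15, SE 0.0771). Without alone replicate 2 the difference was 0.24.

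Il11ra1, the alpha receptor of IL-11, was at 32.1, 32.9 and 28.9 FPKM alone and 35.3, 31.5 and 30.4 FPKM in co-culture, and the groups overlapped (log2 difference 0.049, SE 0.0612). Il11ra1 has a near-identical copy, Il11ra2. How reads shared by both genes were counted is not stated, so the Il11ra1 values are uncertain. Stat3 was at 70.6, 73.5 and 73.4 FPKM alone and 71.6, 65.6 and 69.7 FPKM in co-culture. Co-culture replicate 1 lay among the libraries of cells alone (log2 difference −0.072, SE 0.0401).

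**Figure D2:**
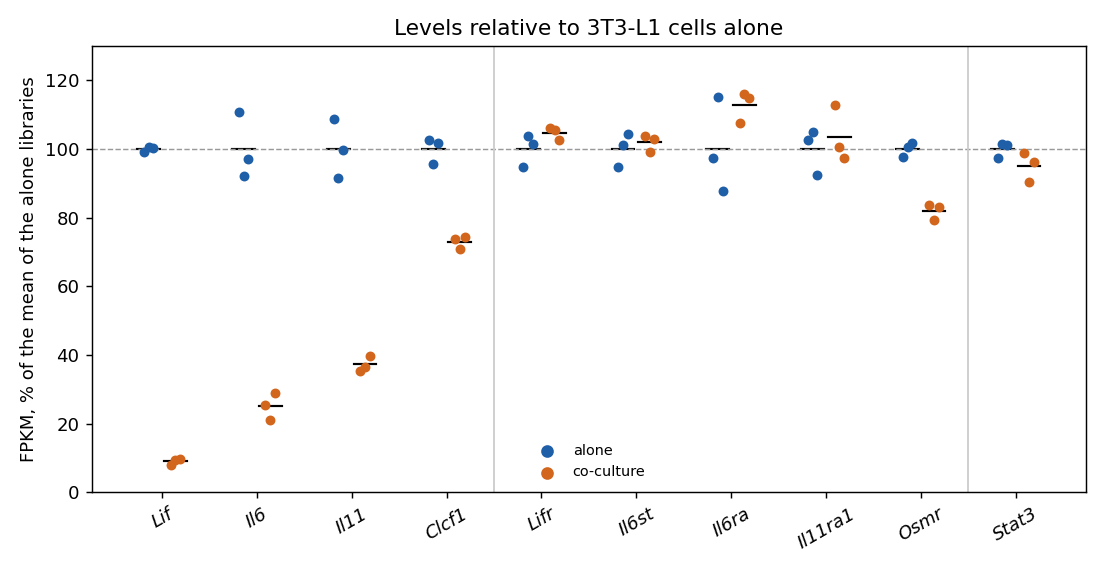
FPKM of each gene in each library as a percentage of the mean of the 3 alone libraries (linear axis from 0). Points are libraries and short bars are group means. Co-culture means lie at 9.05% for Lif, 25.2% for Il6, 37.2% for Il11, 73% for Clcf1 and 82% for Osmr, and between 95.1% and 112.7% for the other 5 genes.

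By role, the summed FPKM of the 4 ligand genes was 75.4 ± 4.20 alone and 28.7 ± 1.78 in co-culture, which is 38.1% of the alone value. The summed FPKM of the 5 receptor genes was 350.1 ± 10.6 alone and 333 ± 8.73 in co-culture, 95.2% of the alone value. All 10 genes passed the filter of a mean of at least 1 FPKM. In limma's moderated test over the 10055 genes that passed (Benjamini-Hochberg adjusted p below 0.05 called), 5 of the 10 were called lower and 0 higher. Over all genes tested, 31.8% were called, 17.9% lower and 13.9% higher. The groups did not overlap, with co-culture lower, for the same 5 genes and for 24.8% of all genes tested, where 46.1% did not overlap in either direction. The median log2 difference of the 10 was −0.18, and that of all genes tested was −0.0037. Since the genes were chosen with this comparison known, nothing is read from these counts. In bulk RNA, fewer cells that make a transcript and less of it per cell cannot be told apart.

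**Figure D3:**
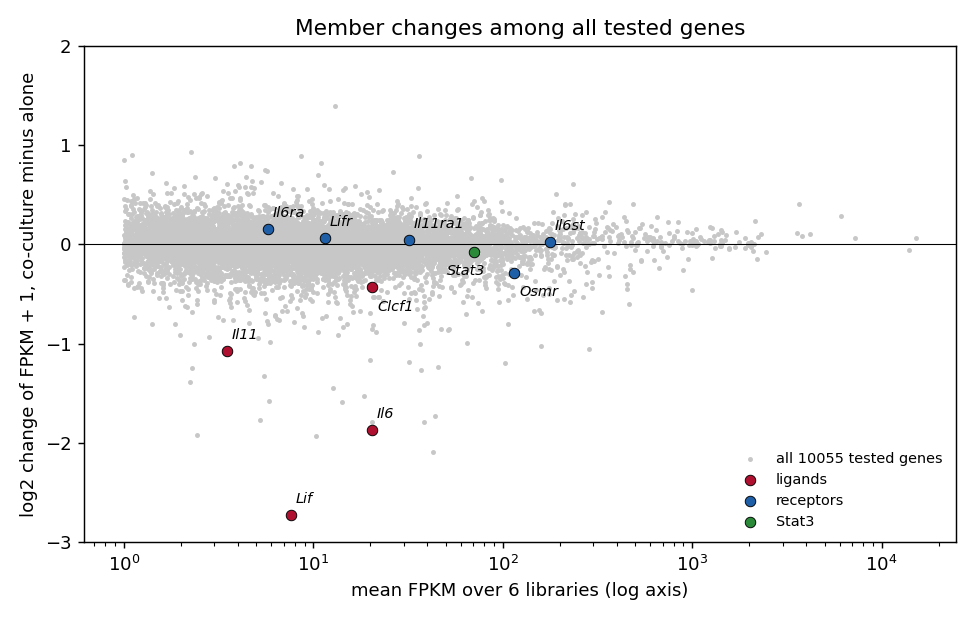
Log2 change of FPKM + 1 (co-culture minus alone) against mean FPKM over the 6 libraries (log axis) for all 10055 tested genes in grey, with the ligand genes in red, the receptor genes in blue and Stat3 in green. Lif at −2.73 is the lowest point, Il6 lies at −1.87 and Il11 at −1.07, and the receptor genes other than Osmr lie close to 0.

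Macrophage and blood cell transcripts are given beside the ligands, since leukocytes are a known source of Il6. Of the 9 macrophage markers 8 were listed, with a summed level of 17.1 to 20.7 FPKM alone and 15.3 to 18.4 in co-culture. Cd14 and Cd68 made up most of that sum, and Lyz2, the lysozyme gene of myeloid cells, averaged 1.248 FPKM in cells alone and 0.411 in co-cultured cells (149 and 47 reads). The pan-leukocyte gene Ptprc had 7 reads over the 3 alone libraries and 3 over the 3 co-culture libraries, Adgre1 had 1 and 1, and Csf1r 16 and 12. Of the blood markers, the neutrophil gene S100a9 averaged 8.59 FPKM in cells alone and 3.13 in co-cultured cells, and the related S100a8 7.93 and 5.35 FPKM. The globin gene Hbb-bs averaged 3.64 and 0.822 FPKM. Reads were also fewer in co-culture for Hba-a1 (125 alone and 53 in co-culture), Hba-a2 (40 and 17) and Alas2 (11 and 3). The same held for Camp (76 and 18), Ngp (179 and 61), Mpo (45 and 19) and Elane (22 and 4). Only Hbb-bt, with 60 reads in each group, and the neutrophil gene Ly6g, with 4 reads alone and 7 in co-culture, were not lower. The part of these transcripts in the ligand differences was not tested. With any 1 library left out, the Lif ratio was between 10.45-fold and 11.4-fold lower and the Il6 ratio between 3.68-fold and 4.28-fold lower. Blood cell marker reads were 464, 417 and 805 alone and 45, 235 and 429 in co-culture. Leaving out 1 library is therefore no test of the part of blood cell transcripts.

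The order of levels differed between the groups. Alone, Il6st had the highest FPKM, followed by Osmr, Stat3, Il6, Il11ra1, Clcf1, Lif, Lifr, Il6ra and Il11. The ranges of neighbours in this order overlapped only for Il6 with Il11ra1 and for Il6ra with Il11. In co-culture the order was Il6st, Osmr, Stat3, Il11ra1, Clcf1, Lifr, Il6, Il6ra, Il11 and Lif, and no neighbours overlapped. Il6st ranked 311 of all 21436 genes by mean FPKM alone and 295 in co-culture, while Lif ranked 3777 alone and 9763 in co-culture.

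Among the signalling chains, gp130 transcripts exceeded those of their partners in every library. The ratio of Il6st to Lifr FPKM was 15.6 ± 0.441 alone and 15.2 ± 0.508 in co-culture. The ratio of Il6st to Osmr was 1.39 ± 0.0401 alone and 1.73 ± 0.00851 in co-culture, and that of Osmr to Lifr was 11.2 ± 0.339 and 8.79 ± 0.336. Il6st exceeded Il6ra 32.9 ± 5.21 times alone and 29.4 ± 1.84 times in co-culture. Osmr was thus the signalling partner of gp130 with the higher transcript level in both groups.

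Ligand transcripts stood differently to those of their own receptors. Lif FPKM was 1.24 ± 0.0491 times that of Lifr alone and 0.107 ± 0.0118 times in co-culture. Il6 FPKM was 6.11 ± 1.12 times that of Il6ra alone and 1.35 ± 0.219 times in co-culture, so it stayed above its alpha receptor in all 6 libraries (lowest ratio 1.101, co-culture replicate 2). Il11 FPKM was below Il11ra1 in both groups, 0.164 ± 0.0188 times alone and 0.0591 ± 0.00775 times in co-culture. The ratio of Il6 to Lif was 2.33 ± 0.241 alone and 6.52 ± 1.18 in co-culture. These are ratios of transcripts and say nothing of the amounts of protein.

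The 10 genes also differed in how closely the replicates lay together. The coefficient of variation of Lif was 0.709% among the alone libraries, against 1.87% from counting error alone, and 9.83% in co-culture, where counting error gives 6.41%. That of Il6 was 9.64% alone and 15.3% in co-culture, where counting error gives 2.68% and 5.54%. Il6ra had the widest spread alone, 13.9%, and 4.05% in co-culture. Over all tested genes the median coefficient of variation was 4.86% alone and 4.15% in co-culture. Il6st varied by 4.93% and 2.53%.

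In mm10 coordinates counted from 1, the ligand gene Clcf1 lies on chromosome 19 from 4214238 to 4223505 and Il11 on chromosome 7 from 4772373 to 4782907. Lif lies on chromosome 11, 16.5 kb beyond the gene of another family ligand, Osm, with 0 annotated genes between them. Osmr spans 6813568 to 6874968 and Lifr 7090610 to 7197489 on chromosome 15, Il6st 112464070 to 112506860 on chromosome 13, Il6ra 89869324 to 89913196 on chromosome 3, and Il11ra1 41760443 to 41769473 on chromosome 4. Stat3 lies on chromosome 11 from 100886806 to 100939594.

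The genes whose levels followed Lif most closely over the 6 libraries, by the Pearson correlation of log2(FPKM + 1), included Ptch1, Orc4, Csf3 and Hmga2 (r from 0.9988 to 0.9996). Since the libraries fall into 2 groups, the points share their group and the values are given with no p. Their differences were smaller than that of Lif. Ptch1, the Hedgehog receptor, was at 9.25 to 9.40 FPKM alone and 6.03 to 6.15 in co-culture. Csf3, the granulocyte colony-stimulating factor, was at 16.1 to 17.8 FPKM alone and 3.52 to 4.01 in co-culture.

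Those most like Il6 were Cited2, Fgf7, Phlda1, Fam110c and Mark1 (r from 0.9973 to 0.9985). Fgf7, a growth factor made by stromal cells, was at 201, 181.6 and 187.6 FPKM alone and 122.6, 114.2 and 123.8 in co-culture. In both groups Fgf7, like Il6, was lowest in replicate 2, a number that names the libraries and does not pair them. Fgf7 was selected by its correlation with Il6 over these same libraries, which favours such a shared order. Phlda1 was at 63.2 to 64.7 FPKM alone and 23.9 to 28.8 in co-culture. The correlation between Lif and Il6 themselves was 0.988 over the 6 libraries.

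Of 12 other ligand and receptor genes of the family, 9 were in the table and 2 passed the filter. Ctf1, which encodes cardiotrophin-1, was at 1.48 ± 0.279 and 1.42 ± 0.208 FPKM (limma adjusted p = 0.812). With 0 of the 2 tested genes called and 0 at an unadjusted p below 0.05, the list gave no call. Cntf was at 0.111 and 0.141 FPKM (15 and 18 reads) and Cntfr, its receptor, had 2 reads alone and 4 in co-culture. Il27 had 0 reads alone and 4 in co-culture, where the floor is 3 reads, and no fold is given. Cntfr and Il27 were chosen after their values were seen.

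Il11ra2 was uneven between libraries, with read numbers of 136, 17 and 11 for cells alone, in replicate order, and of 14, 20 and 158 for co-cultured cells. It was thus high in 1 library of each group, at 1.19 and 1.401 FPKM, against at most 0.176 FPKM in the other 4. Those 136 and 158 reads compare with 2389 and 2228 for Il11ra1 in the same libraries. Co-culture replicate 3, which was high for Il11ra2, was the lowest of its group for Il11ra1, whereas alone replicate 1, also high for Il11ra2, was between the other alone libraries for Il11ra1.

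Genes that carry the signal from gp130 formed the next list, which like the others was chosen with earlier results of these data known. Of 29 kinases, STATs, adaptors, Ras pathway members and shedding enzymes, 28 were in the table and tested, 1 rose and 6 fell (limma, adjusted p below 0.05; 25% called, against 31.8% of all genes tested). The median log2 change was −0.031. Jak1, the kinase that gp130 depends on most, averaged 44.4 ± 1.75 FPKM in cells alone and 47.01 ± 0.994 FPKM in co-cultured cells (log2 change 0.081, limma adjusted p = 0.14). Jak2 was at 10.4 ± 0.183 and 10.2 ± 0.403 FPKM and Tyk2 at 2.93 ± 0.0839 and 3.14 ± 0.079 (limma adjusted p = 0.651 and 0.31).

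Among the STATs, Stat5a, which mediates growth hormone and prolactin signals, rose from 8.72, 9.27 and 9.24 FPKM to 11.5, 11.98 and 11.5 FPKM (1.28-fold, limma adjusted p = 4.26e-04). The groups did not overlap. Its neighbour and close copy Stat5b was at 4.64 ± 0.211 and 5.11 ± 0.185 FPKM (limma adjusted p = 0.131). How reads shared by both Stat5 genes were counted is not stated either.

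Among the 6 genes that fell, Yes1, a Src family kinase, was 1.23-fold lower (limma adjusted p = 0.00224). Adam17 encodes the protease that sheds the IL-6 receptor from the cell surface, and it fell from 26.5 ± 0.71 to 22.8 ± 0.195 FPKM (1.16-fold, limma adjusted p = 0.00212). Of the Ras pathway, the MAP kinase kinase genes Map2k1 and Map2k2 (each 1.19-fold lower) and Hras (1.197-fold lower) fell. Ptpn11, the phosphatase SHP2 that binds gp130, was at 32.1 ± 0.787 and 29.8 ± 0.665 FPKM. Its limma adjusted p was 0.0516. It was 0.0484 without alone replicate 1 and 0.0706 to 0.174 when any other library was left out. Hras was not called without co-culture replicate 3 (limma adjusted p = 0.0508).

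Of 19 inhibitors of the pathway 15 were tested, 0 rose and 6 fell (40% called, against 31.8% of all genes tested), with a median log2 change of −0.105. This list too was chosen with earlier results of these data known, so its share is not independent evidence. Socs3, the STAT3-induced inhibitor that binds gp130, was at 34.5, 31.5 and 30.9 FPKM alone and 7.85, 8.63 and 9.52 FPKM in co-culture. It was 3.73-fold lower with no overlap (limma adjusted p = 4.89e-08). Socs1 fell 1.905-fold (2.76 ± 0.270 to 1.45 ± 0.135 FPKM, limma adjusted p = 1.52e-04), while Socs2 was at 4.13 ± 0.0898 and 3.94 ± 0.0912 FPKM (limma adjusted p = 0.435). Cish was below the filter, with 297 reads alone and 352 in co-culture. The other 4 that fell were the adaptor gene Sh2b3 (1.19-fold lower), Socs4 (1.13-fold), Pias4 (1.16-fold) and the phosphatase gene Ptpn2 (1.15-fold). Leaving out alone replicate 2, or else co-culture replicate 1, brought the 6 down to 3. Ptpn2 lost its call without any 1 of the 6 libraries (limma adjusted p 0.0565 to 0.121). Pias4 lost it when any 1 library numbered 1 or 2, of either group, was left out (limma adjusted p 0.0859 to 0.145). Socs4 lost it when 1 of 4 libraries was left out, those of cells alone numbered 2 and 3 and of co-culture numbered 1 and 3 (limma adjusted p 0.05 to 0.0798).

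A further list held known STAT3 target genes. Of 32 listed genes 29 were tested, 2 rose and 15 fell (58.6% called, against 31.8% of all genes tested), with a median log2 change of −0.17. The list was drawn up with earlier results on some of its genes known, so it is not independent evidence of its direction, and many of its genes are also targets of other pathways. Fos (18.9 ± 0.381 to 6.398 ± 1.64 FPKM, 2.95-fold lower), Junb (142.8 ± 3.93 to 62.2 ± 6.73 FPKM, 2.29-fold lower) and Klf4 (7.43 ± 0.249 to 3.96 ± 0.163 FPKM, 1.88-fold lower) fell furthest. The transcription factor genes Cebpb and Cebpd fell 1.46-fold and 1.33-fold, and Vegfa, a vascular growth factor, 1.29-fold. The 2 that rose numbered 4 without alone replicate 1. They were Irf1 and Ccnd1, named after their values were seen (1.195-fold and 1.13-fold higher).

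The last list held regulators of the stability of Il6 mRNA. Of 12 genes 11 were tested, 2 rose and 6 fell (72.7% called, against 31.8% of all genes tested), with a median log2 change of −0.17. Earlier results of these data were known when the list was chosen, so its share is not independent evidence. Zfp36, whose protein tristetraprolin promotes the decay of cytokine mRNAs, fell from 69.7 ± 3.16 to 15.6 ± 1.85 FPKM (4.46-fold, limma adjusted p = 3.75e-08). Its relatives Zfp36l2 and Zfp36l1 fell 2.01-fold and 1.24-fold, and Rc3h2 (roquin-2) and Elavl1 (HuR) fell 1.22-fold and 1.21-fold. Zc3h12a, which encodes the endonuclease regnase-1 that cleaves Il6 mRNA, was 14.7 ± 0.185 FPKM alone and 16.5 ± 1.08 in co-culture (1.13-fold higher, limma adjusted p = 0.0288). That call was lost without any 1 library but co-culture replicate 3, with an adjusted p of 0.0582 to 0.105. Ybx1 rose 1.103-fold and was not called without co-culture replicate 3 (limma adjusted p = 0.0508). Arid5a, which stabilises Il6 mRNA, was below the filter at 0.828 ± 0.0829 FPKM alone and 0.573 ± 0.0868 in co-culture.

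**Figure D4:**
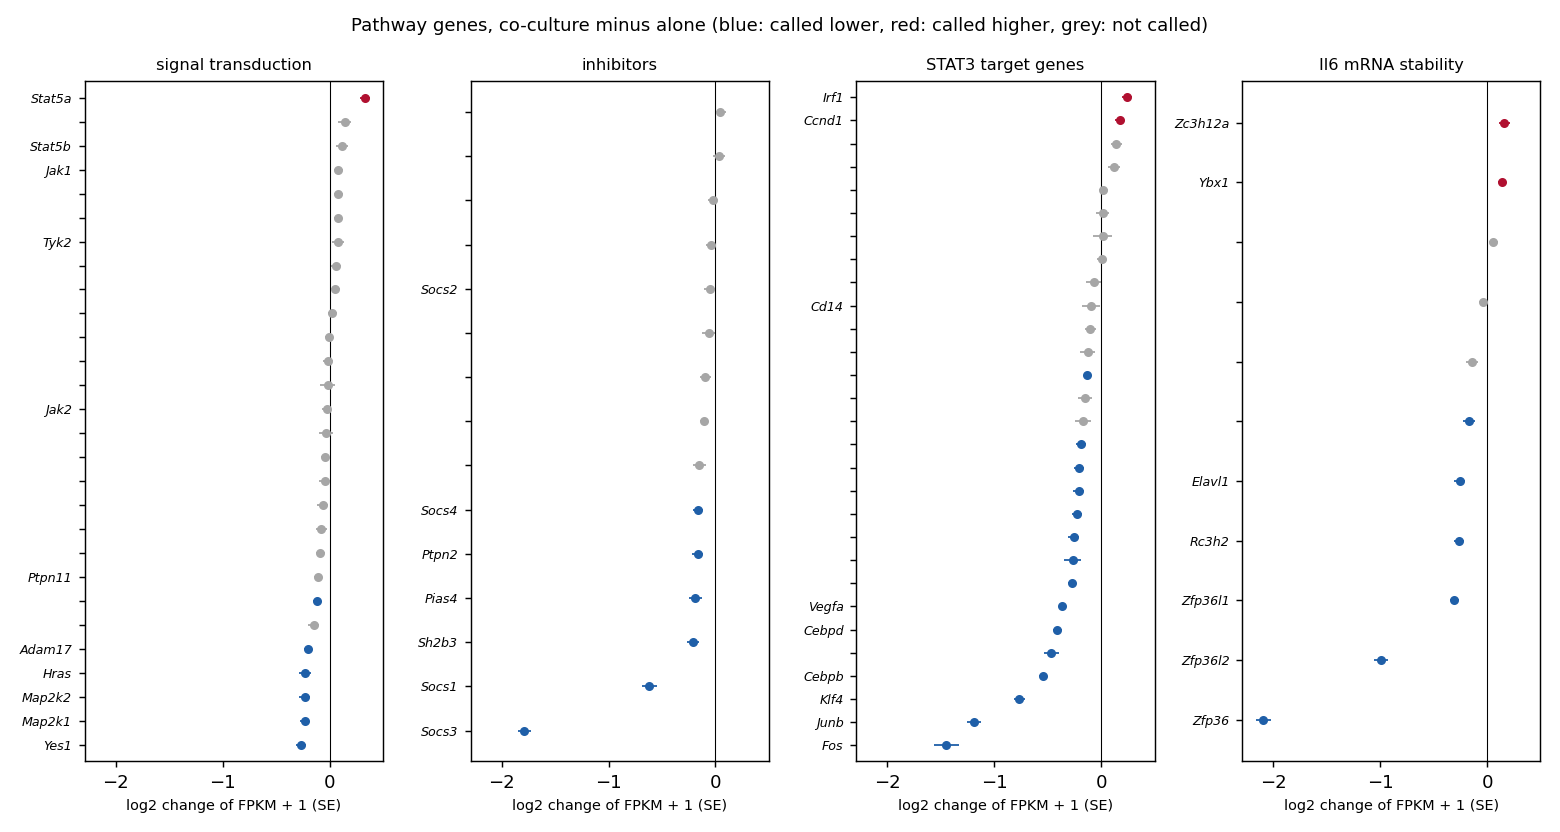
Log2 change of FPKM + 1 (co-culture minus alone, bars are SE, n = 3 per group) for all tested genes of 4 lists, with names only on genes described in the text: signal transduction (28), inhibitors (15), STAT3 target genes (29) and regulators of Il6 mRNA stability (11). Blue points were called lower and red points higher by limma, and Zfp36 at −2.09 and Socs3 at −1.79 are the lowest points.

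The deposited table assigns all 10 genes to the KEGG term JAK-STAT signaling pathway. Of the 122 other genes with that term, a list chosen after the data were seen, 70 were tested, 8 rose and 17 fell. In either direction 35.7% were called, against 31.8% of all genes tested. The 24.3% that fell compare with 17.9% of all genes tested, and the median log2 change of the 70 was −0.033.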

How the data were processed

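Total RNA was prepared with TRIzol and sequenced from VAHTS Universal V6 libraries, per the labels' protocols. Per the submitters' processing notes, the tools were fastp, HISAT2 and HTSeq and the build mm10, with no versions or roles. The authors deposited 1 table of FPKM per gene and library, in which 0 value columns lacked a sample. Whether counting used strand is not given in the sources used here. Whole read numbers were recovered from the ratios of FPKM between libraries (100% of genes, relative tolerance 1e-06), scaled with the 1545 bp of the mitochondrial COX1 gene. They held 98.6% to 98.7% of library totals. Ratios fix read numbers only up to a common factor, which was checked for genes with at least 100 reads in total. Smaller totals are the smallest whole numbers that fit and were not checked.

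Differences were fitted with limma 3.58.1 in R 4.3.3 (eBayes with a trend) on log2(FPKM + 1), computed from the deposited FPKM, for genes whose mean reached 1 FPKM, and 11381 genes were not tested. Adjusted p are Benjamini-Hochberg over the 10055 tested genes. The members and gene lists were chosen with earlier results of these data known. Named were all 10 members, up to 6 called genes of each list by smallest p, some fixed pathway genes, expressed family members, and the 5 genes most like Lif and Il6. Some genes that this rule selects are not reported here. Motif searches were not all planned. The kappaB consensus was first searched in a 9-letter form and, after the matches were seen to miss Il6, replaced by the 10-letter form reported, with both results given in the text. The CRE half-site was an added search. A TATA search (12.4% of windows, 0 of the 12 windows of these genes) was run and left out. Sequences and coordinates are RefSeq's. Alternatives were other pseudocounts, filters and scalings, eBayes without a trend, a block for the replicate number, leaving out each library and, added after the data were seen, limma-voom on the recovered reads.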

Additional observations from a re-analysis of the deposited data

How the results depend on the processing

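The signs of the Lif, Il6, Clcf1 and Osmr differences held under every alternative run, and that of Il11 under all but the filter at a mean of 5 FPKM, which Il11 did not pass and which left 4 members called lower. The log2 difference of Lif was −3.37 and −3.46 with pseudocounts of 0.1 and 0.01, −3.11 with TPM scaling and −3.45 with limma-voom on recovered reads, and that of Il11 was −1.38, −1.42, −1.26 and −1.42 in the same order. The genes called higher numbered 919 to 1427 when each library was left out, against 1402 with all, and 919 was the number without co-culture replicate 3. Members called higher numbered 0 to 1, where the 1 was Il6ra without alone replicate 2. Lower inhibitors numbered 3 to 5, higher STAT3 targets 2 to 4, and higher regulators of Il6 mRNA stability 1 whichever library was left out. The last count was also 1 with no filter and with TPM scaling. Higher signal transduction genes numbered 2 without the eBayes trend and with limma-voom. With no filter 1 other family member was called higher, Il27, on 4 reads. Pairs with the same replicate number had correlations of deviations of −0.044, 0.109 and −0.083, so the numbers were not taken to pair libraries. With the replicate block 1258 genes were called higher and 1640 lower, 5 members and 15 STAT3 targets were lower, and lower inhibitors and lower signal transduction genes each numbered 5 against 6. Pias4 lost its call under the block (limma adjusted p = 0.0641), with limma-voom (0.0874) and with no filter (0.143), where Hras (0.0638), Map2k2 (0.052), Ptpn2 (0.0891) and Zc3h12a (0.0972) lost theirs too. Without a filter 937 genes were called higher and 1251 lower. Depth limits Il27, Cntf and Cntfr, all under 20 reads per group. Intervals from reads cover counting error only.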

Other observations

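Of the 192 genes other than the members that the deposited table assigns to the KEGG term cytokine-cytokine receptor interaction, 65 were tested, 6 were called higher and 23 lower (limma adjusted p below 0.05). In either direction 44.6% were called, against 31.8% of all genes tested. The 35.4% that were lower compare with 17.9% of all genes tested, and the median log2 change was −0.064. The term was chosen after the data were seen, and 9 of the 10 members carry it.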
